A study of Mus musculus with 16 samples.

Results

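The genes described here belong to families of enzymes that add methyl or acetyl groups to histones or take them off, though not every member need act on histones. They were chosen by symbol: the protein-coding genes of the mouse annotation GENCODE M39 whose symbols begin with Kmt, Kdm, Setd, Hdac, Nsd or Kat followed by a digit, or by a letter and a digit, together with Ezh1, Ezh2, Ep300 and Crebbp. The rule uses no measured value, and it gave 62 of the 21594 protein-coding genes. Their exons held 1985 of the 169564 m6A peaks listed in 8 libraries, and when peaks sharing exonic bases were joined, 509 of 52775 regions.

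The libraries came from MeRIP-seq, in which fragmented RNA is pulled down with an antibody against N6-methyladenosine (m6A) and sequenced next to the RNA that entered the pull-down (input). Male C57BL/6J mice aged 6 to 8 weeks, 6 in each surgery group, underwent a sham operation (Sham) or had a middle cerebral artery occluded for 2 h and then reperfused for 0 h (MCAO/R-0 h), 6 h (MCAO/R-6 h) or 24 h (MCAO/R-24 h). Cortex around the infarct was taken, and 2 pull-down libraries per group were deposited as peak lists. Mice were anaesthetised with Avertin before surgery, and no allele or other drug was part of any group. Below, "at 0 h", "at 6 h" and "at 24 h" name the groups by reperfusion time. How mice were combined into the 2 libraries is not given in the sources used here, so the spread between the 2 lists of a group may be technical.

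Methyl groups on lysines of histone H3 and H4 mark active promoters, transcribed gene bodies or silenced chromatin according to the lysine that carries them, and acetyl groups on lysines loosen chromatin. The Kmt2 and Setd1 families methylate H3K4 at promoters and enhancers, Setd2 and the Nsd family methylate H3K36 in gene bodies, Setdb1 methylates H3K9 and Ezh1 and Ezh2 methylate H3K27. Kdm enzymes remove such methyl groups. Ep300, Crebbp and the Kat families acetylate histones, and Hdac enzymes remove the acetyl groups. In the brain these enzymes are known for roles in neuronal gene expression and in developmental disorders of cognition. m6A is deposited on their mRNAs, as on others, by a nuclear methyltransferase complex, mostly near stop codons and in long exons.

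A peak is a stretch where pull-down reads exceeded input reads in the authors' peak call. A list gives the position, strand and score of each peak. Without read counts their depth cannot be known, and a gene without a peak is not thereby shown to be unmethylated. RNA abundance was not analysed here. Since the tissue was bulk cortex, fewer cells of a type and less RNA per cell cannot be told apart behind a missing peak. The 8 lists held 18775 to 24078 peaks, with a mean of 19464 ± 974 (SD, n = 2) in Sham and of 22703 ± 704 (SD, n = 2) at 6 h, the groups with the fewest and the most. Of 21 markers of brain cell types, 4 had a peak in all 8 lists (Aqp4 of astrocytes, Cx3cr1 and P2ry12 of microglia and Olig2 of oligodendrocytes), 13 had one in some lists, and Snap25, Syt1, Gfap and Aif1 had none. The 21 markers together held 22 and 28 peaks in the Sham lists, 30 and 44 at 0 h, 30 and 30 at 6 h and 27 and 33 at 24 h. The 3 endothelial markers held 1 and 5 peaks in Sham and 3 to 10 in the other lists, though Cldn5 held 1 and 1 and 0 to 2. Microglial markers held 8 and 11 peaks in Sham and 6 to 13 in the others, and astrocyte markers 7 and 5 and 4 to 9. Oligodendrocyte markers held 4 and 4 and 4 to 8, and neuronal markers 2 and 3 and 2 to 7. The ranges of each of these sets touched or overlapped Sham. The part of any such shift in the results below was not tested.

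Most histone-modifying enzyme mRNAs carried a peak. A peak was listed for 55 of the 62 genes in at least 1 list (88.7%, against 53.0% of all protein-coding genes), and for 33 of them in all 8 lists (53.2%, against 18.9%). The comparison takes in every annotated coding gene, whether or not cortex expresses it. The 62 genes also have longer transcripts, with a median of 5876.5 nt against 2926 nt, and the part of either in the difference was not tested. The 7 without a peak were Ezh1, Hdac2, Hdac3, Hdac6, Hdac8, Hdac10 and Hdac11. The Sham lists held 258 and 233 peaks of these genes, the 0 h lists 252 and 265, the 6 h lists 257 and 266 and the 24 h lists 210 and 244. The lowest and the second lowest of these 8 values were MCAO/R-24 h replicate 1 and Sham replicate 2, and the range of each reperfusion group overlapped that of Sham. The mean was 248.1 ± 18.9 peaks per list (SD, n = 8), or 1.18% ± 0.0981 of all peaks. By group this share was 1.27% ± 0.154 in Sham, 1.19% ± 0.12 at 0 h, 1.15% ± 0.00767 at 6 h and 1.10% ± 0.00298 at 24 h (SD, n = 2 each), and Sham ranged from 1.16% to 1.37%. Counts and shares of 2 lists and 2 others are compared without a test: an exact permutation test of a single value cannot reach a p of 0.05 there.

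**Figure D1:**
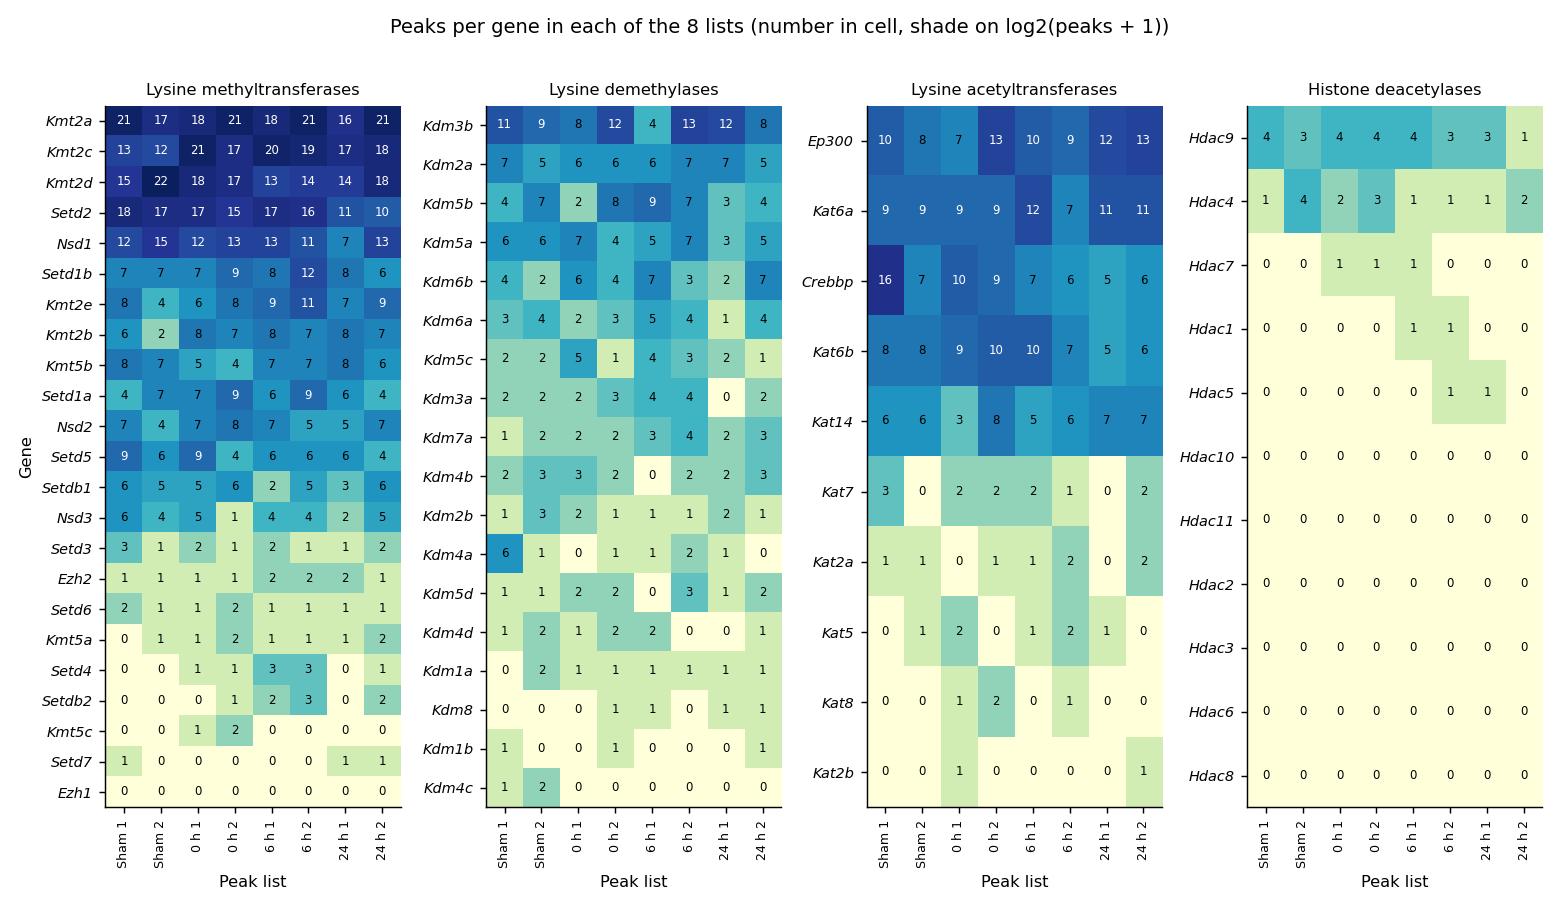
Peaks of each of the 62 genes (rows, by role) in each of the 8 lists (columns). The number is the peak count and the shade its log2(peaks + 1). Kmt2a, with 16 to 21 peaks, and Setd2, with 10 to 18, are dark in every list, while 6 of the 11 deacetylases are at 0 throughout.

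Regions of 8 genes that ranked high by score in every list are shown first. The score has no stated scale and was used as a percentile within its list. Where a list held several peaks in a region, the highest was taken, which favours wide regions. For each gene the region with the highest value in its lowest list was taken. That of Setd2, the enzyme that trimethylates H3K36, stood at or above the percentile of 98.5 in all 8 lists. It was followed by a region of Kat6a (98.0), an acetyltransferase of the MYST family, Kdm5a (97.1), an H3K4 demethylase, Kat6b (96.3), the paralogue of Kat6a, Nsd1 (96.3) and Nsd2 (94.1), both of which dimethylate H3K36, Ep300 (91.7), the p300 acetyltransferase, and Hdac4 (91.7), a class IIa deacetylase. Further regions of Setd2 and Nsd1 also ranked among these, the highest with lowest percentiles of 96.7 and 95.3. The Hdac4 region lay in its 3′ UTR, at chr1:91860226-91860775, and the others in coding sequence. For those 7, the coding bases shared by the peaks of all 8 lists are printed 5′ to 3′ in the sense of the mRNA, up to 300 bases around their middle, from the GENCODE M39 transcripts on GRCm39. Capitals mark GGAC, the core of the most frequent m6A motif. The stretch of Setd2 spans chr9:110401130-110402974 on the + strand, belongs to a region centred in exon 12 of 21, leaves out the intron sequence it crosses and encodes residues 1772 to 1872. That of Kat6a spans chr8:23430339-23430638 (+) in the last of 18 exons, that of Kdm5a chr6:120408822-120409021 (+) in exon 27 of 28, and that of Kat6b chr14:21720295-21720594 (+) in the last of 16. That of Nsd1 spans chr13:55361353-55361652 (+) in exon 2 of 23, that of Nsd2 chr5:34000683-34000882 (+) in exon 3 of 23, and that of Ep300 chr15:81535031-81535183 (+) in the last of 31, ending with the stop codon.
Setd2: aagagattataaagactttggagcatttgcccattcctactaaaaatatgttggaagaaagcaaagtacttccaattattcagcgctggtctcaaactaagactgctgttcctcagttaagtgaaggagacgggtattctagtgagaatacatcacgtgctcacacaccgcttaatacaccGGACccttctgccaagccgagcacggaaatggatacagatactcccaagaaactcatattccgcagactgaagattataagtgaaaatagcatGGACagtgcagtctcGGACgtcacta
Kat6a: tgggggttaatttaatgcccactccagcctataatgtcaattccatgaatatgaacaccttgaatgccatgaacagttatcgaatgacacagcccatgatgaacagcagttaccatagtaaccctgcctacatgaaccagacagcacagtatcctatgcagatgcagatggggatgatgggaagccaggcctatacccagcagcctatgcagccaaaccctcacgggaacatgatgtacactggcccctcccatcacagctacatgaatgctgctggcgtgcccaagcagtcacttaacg
Kdm5a: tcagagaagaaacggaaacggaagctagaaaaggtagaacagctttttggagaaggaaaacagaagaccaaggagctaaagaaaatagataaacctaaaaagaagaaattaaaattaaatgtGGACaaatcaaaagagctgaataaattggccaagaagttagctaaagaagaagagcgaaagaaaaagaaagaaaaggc
Kat6b: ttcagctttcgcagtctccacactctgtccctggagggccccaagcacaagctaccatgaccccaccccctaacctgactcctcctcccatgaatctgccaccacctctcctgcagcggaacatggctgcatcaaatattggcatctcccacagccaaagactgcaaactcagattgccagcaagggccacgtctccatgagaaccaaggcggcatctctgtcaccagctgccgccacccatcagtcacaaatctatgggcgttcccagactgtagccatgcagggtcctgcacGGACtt
Nsd1: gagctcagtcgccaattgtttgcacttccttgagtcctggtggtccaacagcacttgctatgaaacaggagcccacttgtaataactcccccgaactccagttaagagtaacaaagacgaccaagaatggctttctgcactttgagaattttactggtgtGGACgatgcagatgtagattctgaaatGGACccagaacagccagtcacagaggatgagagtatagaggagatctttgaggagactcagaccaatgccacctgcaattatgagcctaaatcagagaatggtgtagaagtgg
Nsd2: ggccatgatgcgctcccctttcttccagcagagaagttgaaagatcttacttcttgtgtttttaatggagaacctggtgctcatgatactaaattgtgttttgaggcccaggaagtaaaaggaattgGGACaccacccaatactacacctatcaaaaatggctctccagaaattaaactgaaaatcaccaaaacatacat
Ep300: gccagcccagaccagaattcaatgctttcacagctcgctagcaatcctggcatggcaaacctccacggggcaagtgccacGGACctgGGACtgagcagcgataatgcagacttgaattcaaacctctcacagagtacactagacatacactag

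GGAC occurred 3 times in the stretch of Setd2, 2 times in those of Nsd1 and Ep300, once each in Kdm5a, Kat6b and Nsd2, and not in that of Kat6a. Among windows of 100 nt centred on the regions, read on the mRNA strand alone, GGAC was found in 36.6% of 481 windows of these genes and in 48.3% of the 58 whose region was in all 8 lists. Of windows of the same length on the same transcripts without a peak, 31.6% of 2523 held it, and of windows on regions of all protein-coding genes 38.7% of 43461, with 41.7% of those in all 8 lists. The longer GGACT, which contains GGAC, was found in 11.0% of the windows on regions, in 13.8% of those in all 8 lists and in 9.24% of those without a peak, while over all protein-coding genes it was in 12.8% of the regions and 15.5% of those in all 8 lists. A match describes letters and is not evidence of a methylated base.

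By roles taken from the symbols, lysine methyltransferases held more than their share of the peaks and deacetylases less. The 23 methyltransferase genes had 144.5 ± 10.9 peaks per list (SD, n = 8), 58.2% of the peaks on 44.5% of the transcript length, a density of 0.827 peaks per kb. The 10 acetyltransferase genes had 46.1 ± 5.49 peaks, at 0.804 per kb. The 18 demethylase genes had 51.5 ± 5.95 peaks, at 0.438 per kb, on 30.0% of the length. The 11 deacetylase genes had 6 ± 1.6 peaks, at 0.141 per kb, on 10.9% of the length. In every list the methyltransferases had the most peaks and the deacetylases the fewest. All 62 genes had 0.632 peaks per kb, and all protein-coding genes with a peak in any list 0.392.

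**Figure D2:**
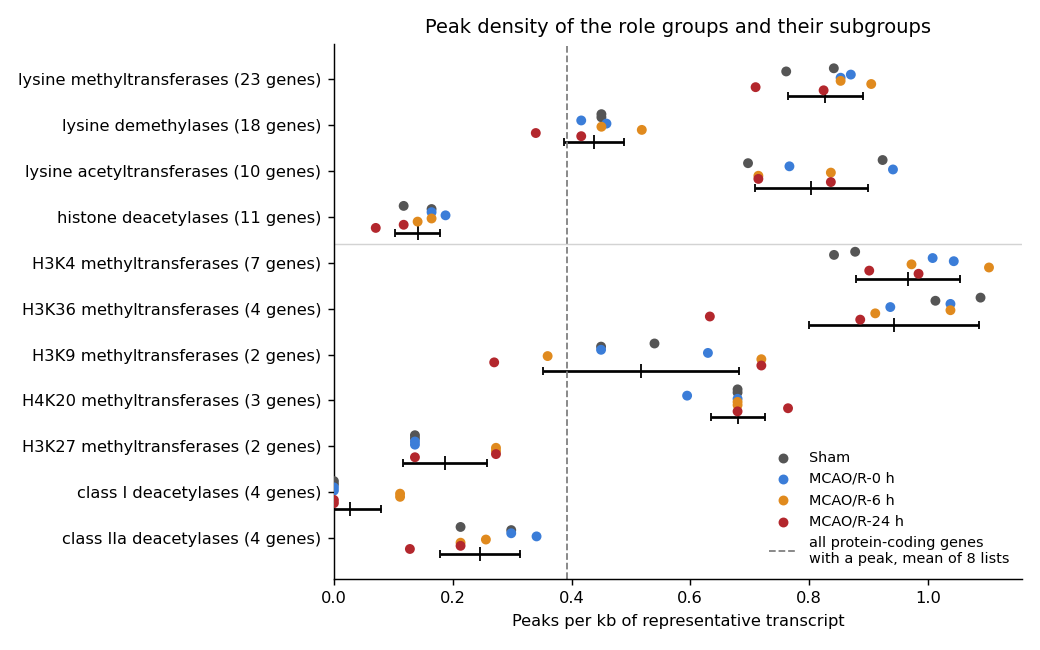
Peaks per kb of transcript (x axis) in each role group and subgroup (y axis), 1 point per list coloured by group, with a bar for the mean and SD of the 8 lists. The dashed line is the mean of all protein-coding genes with a peak, 0.392. H3K4 (0.966) and H3K36 (0.943) methyltransferases lie to its right in every list, and the class I and class IIa deacetylases to its left (classes IIb and IV, with no peak, are not drawn).

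Within the methyltransferases, the 7 H3K4 enzymes had 0.966 peaks per kb and the 4 H3K36 enzymes 0.943, against 0.680 for the 3 H4K20 enzymes, 0.517 for the 2 H3K9 enzymes and 0.188 for the 2 H3K27 enzymes. Ezh2, the catalytic subunit of Polycomb repressive complex 2, had 1 or 2 peaks in every list, and its paralogue Ezh1 had none. The H3K4 enzymes had 74 and 71 peaks in Sham and 76 to 93 in the 6 reperfusion lists, so the Sham lists were the lowest in number. As a share of their list, however, the Sham values of 0.394% and 0.352% overlapped the 0.365% to 0.428% of the others. The H3K36 enzymes had 25 and 35 peaks at 24 h, 43 and 40 in Sham and 36 to 41 in the others, so the 24 h lists were the lowest in number. As a share of their list the 24 h values of 0.131% and 0.157% overlapped those at 0 h (0.207% and 0.154%) and at 6 h (0.185% and 0.155%) and lay below those of Sham (0.229% and 0.198%). Of these 4 genes, Setd2 alone did not overlap, with 18 and 17 peaks in Sham and 11 and 10 at 24 h. Counts in Sham and at 24 h overlapped for Nsd1 (12 and 15, 7 and 13), Nsd2 (7 and 4, 5 and 7) and Nsd3 (6 and 4, 2 and 5).

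The 5 genes with the most peaks, Kmt2a, Kmt2c, Kmt2d, Setd2 and Nsd1, were methyltransferases. Kmt2a (MLL1), an H3K4 methyltransferase, had 19.1 ± 2.1 peaks per list (SD, n = 8) and ranked 8 among all protein-coding genes. Its lists held 21 and 17 peaks in Sham, 18 and 21 at 0 h, 18 and 21 at 6 h and 16 and 21 at 24 h, and all 4 groups overlapped. Kmt2d (MLL4), an enhancer H3K4 methyltransferase, had 15 and 22 peaks in Sham, 18 and 17 at 0 h, 13 and 14 at 6 h and 14 and 18 at 24 h. Kmt2e, a catalytically weak member of the same family, had 8 and 4 peaks in Sham, 6 and 8 at 0 h, 9 and 11 at 6 h and 7 and 9 at 24 h. Nsd1 had 12 and 15 peaks in Sham, 12 and 13 at 0 h, 13 and 11 at 6 h and 7 and 13 at 24 h. Kmt2c, Kmt2b and Setd2 are described with the comparisons below. Per kb of transcript Setd2 had 1.79 peaks, the most of the 62 genes, followed by Kdm3b with 1.42, Kat6b with 1.28 and Kmt2a with 1.16. The rest of the Kmt2 family had 1.05 (Kmt2e), 1.02 (Kmt2c), 0.826 (Kmt2d) and 0.782 (Kmt2b) peaks per kb, and Kmt2e and Kmt2c, like Kmt2d and Kmt2b, differed by less than the spread of either gene over its lists.

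Among the acetyltransferases, Ep300 had 10 and 8 peaks in Sham, 7 and 13 at 0 h, 10 and 9 at 6 h and 12 and 13 at 24 h. Kat6a had 9 peaks in each Sham and each 0 h list, 12 and 7 at 6 h and 11 and 11 at 24 h. Crebbp, the CREB-binding protein and paralogue of Ep300, had 16 and 7 peaks in Sham, 10 and 9 at 0 h, 7 and 6 at 6 h and 5 and 6 at 24 h. Its Sham lists were far apart, and its highest value came from Sham replicate 1. The other acetyltransferases went from Kat6b, with 7.88 ± 1.81 peaks, and Kat14, with 6 ± 1.51, down to Kat2b, a homologue of yeast Gcn5, with 0.25 peaks per list.

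Among the demethylases, Kdm3b, an H3K9 demethylase, had 11 and 9 peaks in Sham, 8 and 12 at 0 h, 4 and 13 at 6 h and 12 and 8 at 24 h. Both extremes came from the 6 h lists. Kdm2a, an H3K36 demethylase, had 5 to 7 peaks in each list. All 18 demethylase genes had a peak in some list, and 9 had one in every list. Kdm4a, an H3K9 and H3K36 demethylase, had 6 and 1 peaks in Sham and 0 to 2 in the other lists, and Kdm4c, of the same family, had 1 and 2 peaks in Sham and none in any reperfusion list.

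Among the deacetylases, the peaks belonged to class IIa, which shuttles between cytoplasm and nucleus, with 5.75 of the 6 per list. Hdac9 had 4 and 3 peaks in Sham, 4 and 4 at 0 h, 4 and 3 at 6 h and 3 and 1 at 24 h. Hdac4 had 1 and 4 peaks in Sham, 2 and 3 at 0 h, 1 and 1 at 6 h and 1 and 2 at 24 h. Hdac5 and Hdac7 had a peak in 2 and 3 lists. Of class I, the nuclear enzymes of the Sin3, NuRD and CoREST complexes and of the NCoR complex, Hdac1 alone had a peak, in both 6 h lists at different places, and no class IIb or class IV gene had any.

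The peaks of these genes lay mostly in the coding sequence and in long exons. The median transcript of the 62 genes is 5876.5 nt long, against 2926 nt for all protein-coding genes. Across the 62 genes, Spearman's rho of mean peaks per list was 0.743 with transcript length, 0.476 with the number of exons and 0.830 with the length of the longest internal exon. These are descriptions across genes, which share the 8 libraries and are not replicates. The deacetylase genes have a median longest internal exon of 202 nt, the methyltransferase genes one of 567 nt, the demethylase genes 506.5 nt and the acetyltransferase genes 443.5 nt.

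By the centre of the peak, 80.3% ± 2.18 (SD, n = 8) of the peaks of these genes lay in coding sequence, 15.4% ± 2.18 in 3′ UTRs and 3.45% ± 1.04 in 5′ UTRs. Over all protein-coding genes the shares were 56.8%, 35.0% and 5.34%. The lists ranged from 78.3% to 84.5% for coding sequence, all above the 54.7% to 58.6% of all genes. The share of centres at most 200 nt from the stop codon was 10.5% ± 0.836 (SD, n = 8), against 20.4% ± 0.395 over all protein-coding genes. Internal exons of at least 400 nt held 45.8% ± 2.11 of the centres, against 18.5%, last exons 28.5% ± 1.82, against 54.9%, other internal exons 23.3%, against 16.8%, and first exons 2.40%, against 6.21%. The share in long internal exons was 43.6% and 46.6% in the Sham lists, 47.8% and 48.2% at 0 h, 42.9% and 47.5% at 6 h and 45.9% and 43.6% at 24 h, so the 0 h lists lay above both Sham lists and the later times overlapped Sham. The share near the stop codon was 10.0% and 9.87% in Sham, 9.80% and 9.80% at 0 h, 11.3% and 10.0% at 6 h and 11.7% and 11.4% at 24 h, so the 24 h lists were the highest. Over all protein-coding genes the 24 h lists were the highest too, with 20.8% in each against 20.5% and 20.3% in Sham. The share in 3′ UTRs was 17.4% and 16.3% in Sham, 12.3% and 15.8% at 0 h and 13.6% and 12.8% at 6 h, all 4 below Sham, while the 24 h lists overlapped Sham. In all protein-coding genes it was 35.3% and 33.5% in Sham, 33.4% and 37.0% at 0 h and 33.9% and 34.7% at 6 h, which overlapped. These are single shares of 2 lists a group, with no test. The mean share in long internal exons depends on the bound of 400 nt: with 200 nt it was 55.4% and with 1000 nt 27.7%.

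Measured as covered bases, internal exons from 400 nt to under 1000 nt were covered over 31.4% ± 2.7 (SD, n = 8) of their length in these genes, and those of 1000 nt or more over 28.8% ± 3.02. In all protein-coding genes with a peak the same classes were covered over 15.8% ± 1.86 and 20.0% ± 2.3. Internal exons under 200 nt, 979 of them in these genes, were covered over 2.71% ± 0.538, against 1.97%, and last exons over 9.62% ± 0.944, against 7.17%. A peak touched 97.6% ± 2.55 of the 21 internal exons of at least 1000 nt in a list, and 6.09% ± 1.2 of the exons under 200 nt.

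**Figure D3:**
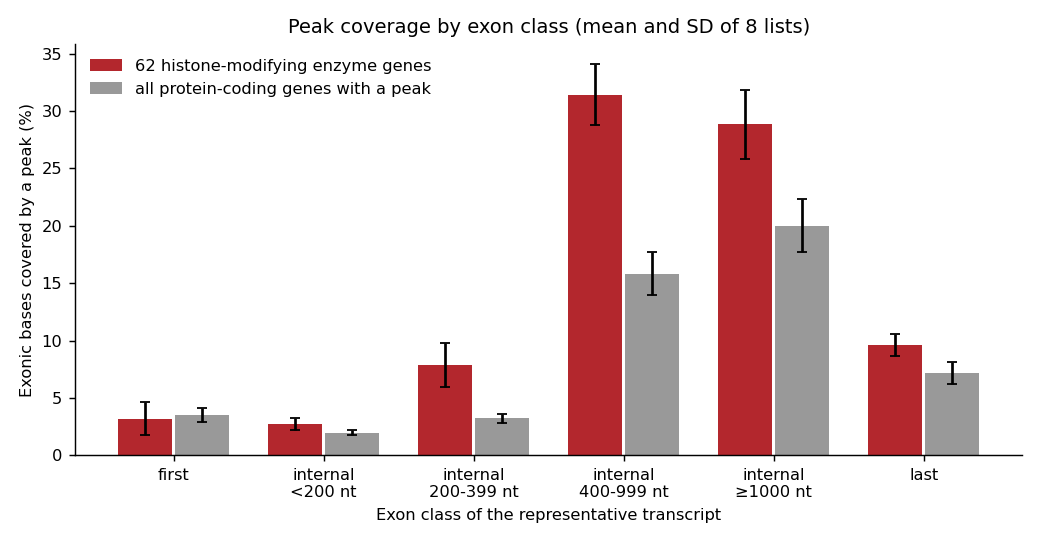
Share of exonic bases covered by a peak (y axis, %) in exon classes of the representative transcript (x axis), in the 62 genes (red) and in all protein-coding genes with a peak (grey). Bars are means and error bars SDs of 8 lists. The red bars reach 31.4% and 28.8% in the internal exons from 400 nt to under 1000 nt and from 1000 nt on, and stay under 10% in the other classes.

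The 21 longest internal exons belong to 10 genes, all but Kdm3b and Kdm6b being methyltransferases, and 19 of them had a peak in all 8 lists. Setd2 exon 3 of 21, with 4286 of the 8445 nt of the transcript, held 7.63 ± 2 peaks per list (SD, n = 8). That was 50.4% of the peaks of the gene, near the exon's share of the length. Kmt2a exon 27 of 36, with 4237 of 16497 nt, held 6.63 ± 2, 34.6% of its peaks. Kmt2b exon 3, with 2036 of 8469 nt, held 64.2% of the peaks of that gene, and Nsd1 exon 5, with 2560 of 12819 nt, 39.6%. In Kmt2a, Kmt2b and Nsd1 the exon thus held more than its share of the length. Among last exons, exon 13 of Kmt5b, an H4K20 methyltransferase, held 80.8% of the peaks of that gene and exon 31 of Crebbp 65.2%. Exon 16 of Kat6b held 54.0%, exon 18 of Kat6a 49.4% and exon 31 of Ep300 46.3%. These last exons have 2543 of 6165 nt in Kat6b, 5271 of 9197 nt in Kat6a and 4204 of 10552 nt in Ep300. The share of peaks was thus above that of length in Kat6b and Ep300 and below it in Kat6a. The mean covered share of the 21 exons went from 14.8% in Kmt2d exon 49 to 52.1% in Setd1b exon 6.

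The covered bases of these 21 exons were compared with Sham, in exons chosen by length alone but in a comparison added after values were seen. At 0 h 9 of the 21 were higher in both lists than in both Sham lists and 3 lower, where 19.1% and 7.31% of the 876 internal exons of that length covered in any list, over all protein-coding genes, were. At 6 h 6 were higher and 3 lower, against 27.1% and 7.99%, and at 24 h 5 were higher and 5 lower, against 16.2% and 14.2%. As shares of the 21 exons these are 42.9% and 14.3%, 28.6% and 14.3%, and 23.8% and 23.8%. Higher at each time were Kmt2b exon 28, Kmt2c exon 43 and Kmt2d exon 32, and lower at each time Kmt2c exon 52 and Setd1b exon 6, so Kmt2c has exons of both kinds. Setd2 exon 3 was covered over 2008 and 1650 nt in Sham, 1925 and 2025 nt at 0 h, 2250 and 2225 nt at 6 h and 1200 and 1175 nt at 24 h, so both 24 h lists lay below the other 6. Setd1b, an H3K4 methyltransferase, was covered in exon 6, which has 1209 nt, over 925 and 875 nt in Sham, 450 and 820 nt at 0 h, 420 and 820 nt at 6 h and 225 and 500 nt at 24 h. Both Sham lists were the highest there. Kmt2c exon 43, with 1707 nt, was covered over 325 and 500 nt in Sham, 1019 and 738 nt at 0 h, 907 and 719 nt at 6 h and 669 and 563 nt at 24 h, so both Sham lists were the lowest. These 3 exons were chosen for description after their values were seen.

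Recurrence was counted as the number of lists that hold a region. Of the 509 regions, 203 were in 1 list only (39.9%, against 52.6% of all regions) and 59 in all 8 lists (11.6%, against 8.97%). The 59 lay in 28 genes, with 51 in coding sequence, 7 in 3′ UTRs and 1 in a 5′ UTR. Setd2 had 6 of them, Nsd1 5, and Kmt2a, Kmt2c, Kmt2d, Ep300 and Kat6a 4 each, while Crebbp had none among its 19 regions. A region in 1 list was in coding sequence in 72.4% of cases and a region in all 8 lists in 86.4%.

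**Figure D4:**
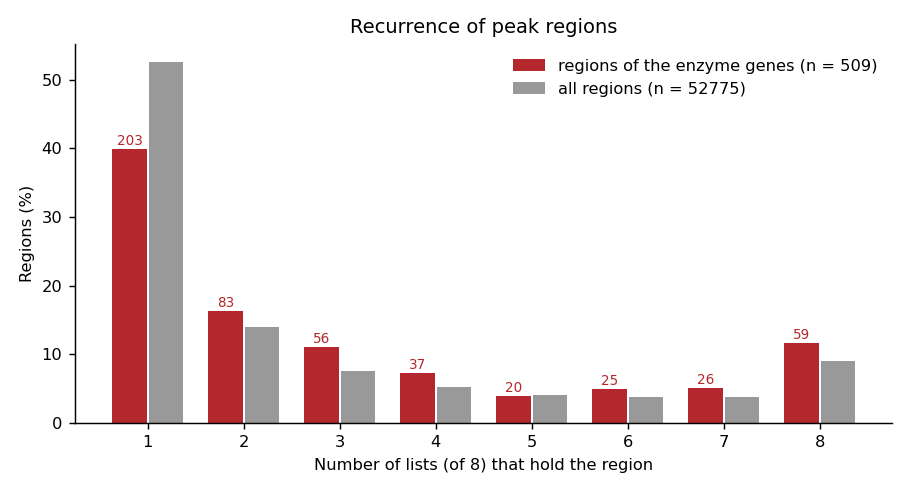
Share of regions (y axis, %) by the number of lists that hold them (x axis), for the 509 regions of the enzyme genes (red, with their number above the bar) and for all 52775 regions (grey). The red bar is lower at 1 list, 39.9% against 52.6%, and higher at 8 lists, 11.6% against 8.97%.

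The study compared each reperfusion time with Sham to follow m6A after ischaemia. A region was counted as gained when both lists of a time held it and neither Sham list did, and as lost in the reverse case. At 0 h 17 of the 509 regions were gained (3.34%) and 11 lost (2.16%), where 2.6% and 1.27% of all regions were. At 6 h 22 were gained (4.32%) and 9 lost (1.77%), against 3.43% and 1.4%. At 24 h 15 were gained (2.95%) and 15 lost (2.95%), against 2.53% and 1.84%. Of the regions in at least 2 lists, which alone can be called, the gained shares were 5.56%, 7.19% and 4.90% in these genes and 5.49%, 7.23% and 5.34% in all genes, and the lost shares 3.59%, 2.94% and 4.90% against 2.68%, 2.96% and 3.88%. The shares of the enzyme genes thus stood close to the background at each time. The 3 comparisons share the Sham lists. In all, 63 regions of 34 genes were gained or lost at some time, and from 2 to 6 of those called at a time had a peak of the other group within 100 nt.

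The genes with a gained region at 0 h were Ep300, Kat6b, Kat7, Kat8, Kdm5c, Kmt2a, Kmt2b, Kmt2c, Kmt2d, Kmt2e, Kmt5c and Setd1a. At 6 h they were Ezh2, Kdm5b, Kdm5c, Kdm6b, Kmt2a, Kmt2b, Kmt2c, Kmt2d, Kmt2e, Kmt5b, Nsd2, Setd1a, Setd1b, Setd2, Setd4 and Setdb2. At 24 h they were Crebbp, Kdm2a, Kdm6b, Kmt2a, Kmt2b, Kmt2c, Kmt2e, Nsd2, Setd1a and Setd5. Kmt2a, Kmt2b, Kmt2c, Kmt2e and Setd1a, all of the H3K4 group, appear at each time. That group holds 155 of the 509 regions, and the share of all genes with a gain at each time was not counted. Kmt2a also lost a region at each time, Kmt2e at 0 h and 24 h and Kmt2b at 24 h. The regions of these genes thus moved in both directions. Of the others, Kat7 and Kat8 are acetyltransferases of the MYST family, Kdm5b and Kdm5c demethylate H3K4, and Kmt5b and Kmt5c methylate H4K20.

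The genes with a lost region at 0 h were Kat14, Kat6a, Kat6b, Kdm4a, Kdm4c, Kmt2a, Kmt2e, Nsd3, Setd5 and Setdb1. At 6 h they were Crebbp, Kat6a, Kat6b, Kdm3b, Kdm4a, Kdm4c, Kmt2a, Setd5 and Setdb1. At 24 h they were Crebbp, Kat6a, Kat6b, Kdm2a, Kdm3a, Kdm4a, Kdm4c, Kdm4d, Kmt2a, Kmt2b, Kmt2e, Nsd1, Setd5 and Setdb1. Setdb1, Setd5, Kat6a, Kat6b, Kdm4a and Kdm4c, with the last 2 of these erasing H3K9 methylation, appear at each time, besides Kmt2a. Kat6b also gained a region at 0 h and Setd5 at 24 h. The share of all genes with a loss at each time was not counted. Kat14 is a subunit of the ATAC acetyltransferase complex, Nsd3 an H3K36 methyltransferase and Kdm4d a further H3K9 demethylase.

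Regions gained at all 3 times were in all 6 reperfusion lists and in neither Sham list, and their share over all regions was not counted. There were 3, in Kmt2e, Kmt2c and Kmt2b. The region of Kmt2e, at chr5:23707890-23708114 (+) at the end of the coding sequence in its last exon, had score percentiles of 81.9 and 51.4 at 0 h, 46.0 and 62.4 at 6 h and 15.7 and 76.4 at 24 h. The region of Kmt2c, at chr5:25504712-25505011 (− strand) in exon 43 of 59, had 52.6 and 65.6, 34.0 and 62.5, and 45.8 and 50.6 in the same order. The region of Kmt2b, at chr7:30274541-30275293 (−) in exon 28 of 37, had 13.1 and 66.9, 63.7 and 0.414, and 63.1 and 63.2. Its value of 0.414 in MCAO/R-6 h replicate 2 lies at the bottom of that list, and its 6 peaks share no common base.

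Regions lost at all 3 times were in both Sham lists and in no other list, and their share over all regions was not counted. There were 6. That of Setdb1, at chr3:95246219-95246480 (−), had percentiles of 7.96 and 12.1 in the 2 Sham lists, that of Kdm4c, at chr4:74160784-74170228 (+) in the 5′ UTR, 13.9 and 8.30, and that of Setd5, at chr6:113129150-113129249 (+) in the 3′ UTR, 8.85 and 0.898. These 3 were low in both lists. That of Kdm4a, at chr4:117996110-117999312 (−), had 43.3 and 62.7. Those of Kat6a, at chr8:23428596-23428695 (+), and Kat6b, at chr14:21567107-21567281 (+), had higher values, 69.8 and 81.6 and 85.5 and 78.2.

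The bases common to all lists that hold them are printed for the coding regions gained or lost at all 3 times, beside the constant regions printed above. The 2 gained stretches come from Kmt2e (chr5:23708015-23708045, the last codons and the stop codon) and Kmt2c (chr5:25504887-25504936), and the 4 lost ones from Setdb1 (chr3:95246269-95246318, exon 13 of 22), Kdm4a (chr4:117996110-117996159, exon 20 of 22), Kat6a (chr8:23428646-23428695, exon 18 of 18) and Kat6b (chr14:21567182-21567231, exon 1 of 16).
Kmt2e: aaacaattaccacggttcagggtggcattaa
Kmt2c: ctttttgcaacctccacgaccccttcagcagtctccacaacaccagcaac
Setdb1: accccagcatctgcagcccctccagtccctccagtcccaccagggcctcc
Kdm4a: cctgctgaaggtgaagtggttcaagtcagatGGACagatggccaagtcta
Kat6a: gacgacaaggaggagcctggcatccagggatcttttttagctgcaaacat
Kat6b: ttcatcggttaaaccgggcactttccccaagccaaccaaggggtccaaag

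Of these 6 short stretches, that of Kdm4a holds GGAC and the others do not. The lost regions of Kat6a and Kat6b lie in genes whose regions printed earlier were in all 8 lists.

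Other coding regions were gained or lost at 2 times. In Kmt2b a region at chr7:30287781-30288080 (−) in exon 1 had percentiles of 59.1 and 64.8 at 6 h and 63.6 and 59.5 at 24 h and was in no other list. In Setd1a a region at chr7:127384695-127385163 (+) in exon 7 was likewise in those 4 lists alone, at 61.6, 18.2, 25.9 and 50.2. In Nsd2 a region at chr5:34050946-34052541 (+) was in those 4 lists and in MCAO/R-0 h replicate 2. In Crebbp a region at chr16:3902017-3902191 (−) in its last exon was in both Sham lists (77.2 and 73.5) and both 0 h lists (79.0 and 62.7) and in none of the later 4. Regions held by all lists but those of 24 h were found in Kmt2b (chr7:30285454-30285653, exon 3) and in Kdm3a, an H3K9 demethylase (chr6:71588719-71588943, exon 10).

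Counts per gene were compared for the 26 genes with a mean of at least 3 peaks per list. A gene was counted as higher when both lists of a time exceeded both Sham lists, and as lower in the reverse case. At 0 h 3 genes were higher (Kat6b, Kmt2b and Kmt2c) and 1 lower (Kmt5b), where 13.2% and 8.73% of 2120 genes were. At 6 h 4 were higher (Kmt2b, Kmt2c, Kmt2e and Setd1b) and 1 lower (Kmt2d), against 16.6% and 8.25%. At 24 h 5 were higher (Ep300, Kat14, Kat6a, Kmt2b and Kmt2c) and 4 lower (Crebbp, Kat6b, Kdm5a and Setd2), against 11.6% and 12.4%. As shares of the 26 genes these are 11.5% and 3.85%, 15.4% and 3.85%, and 19.2% and 15.4%, near the background. Covered bases did not follow the counts in every gene. Ep300 was covered over 1750 and 2200 nt in Sham and 1700 and 1903 nt at 24 h. For Kat6a the values were 2900 and 2675 nt, and 2700 and 2875 nt. Kmt5b had 1442 and 1175 nt in Sham and 1050 and 2025 nt at 0 h, so each overlapped Sham. In Kmt2b, Kmt2c, Setd2 and Kdm5a, given below, covered bases went the way of the counts. When only the 18775 highest-scoring peaks of each list were used, an alternative chosen after the lists were seen, 1 gene was higher at 0 h and 2 lower at 6 h.

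Kmt2c and Kmt2b were higher at every time, and Setd2 was lower at 24 h. Kmt2c (MLL3), an enhancer H3K4 methyltransferase, had 13 and 12 peaks in Sham, 21 and 17 at 0 h, 20 and 19 at 6 h and 17 and 18 at 24 h. All 6 reperfusion lists exceeded both Sham lists, also with lists of equal length (13 and 12 in Sham, 15 to 21 in the others). Its covered bases were 2450 and 2500 nt in Sham and 2825 to 3925 nt in the 6 lists. Kmt2b (MLL2), a promoter H3K4 methyltransferase, had 6 and 2 peaks in Sham, 8 and 7 at 0 h, 8 and 7 at 6 h and 8 and 7 at 24 h. Its Sham lists were far apart, and with lists of equal length it had 6 and 2 peaks in Sham and 5 to 8 in the others, which overlap. Its covered bases were 425 and 225 nt in Sham and 850 to 1250 nt in the reperfusion lists.

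Setd2 had 18 and 17 peaks in Sham, 17 and 15 at 0 h, 17 and 16 at 6 h and 11 and 10 at 24 h. Both 24 h lists lay below the other 6, also with lists of equal length (11 and 10, against 14 to 18). It was covered over 3148 and 2927 nt in Sham, 3185 and 2990 nt at 0 h, 3765 and 3648 nt at 6 h and 2262 and 1973 nt at 24 h. Of its 21 regions 6 were in all 8 lists, the one printed above included. Setd2 had no region that met the rule for a lost region. Of 2120 genes 12.4% had lower counts at 24 h than in Sham, and the share below all 6 other lists was not counted.

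Over all 6 reperfusion lists against both Sham lists, a comparison chosen after values were seen, 2 of the 26 genes had higher peak counts (Kmt2b and Kmt2c, where 2.69% of 2120 genes did) and 0 had lower counts (1.6%). For covered bases 4 genes were higher (Kdm6b, Kmt2b, Kmt2c and Kmt2e, against 6.32%) and 1 lower (Kdm5a, against 1.79%). Kdm6b, an H3K27 demethylase, was covered over 477 and 200 nt in Sham, 850 and 525 nt at 0 h, 977 and 500 nt at 6 h and 900 and 752 nt at 24 h, so its lowest reperfusion list stood just above the higher Sham list. Kmt2e was covered over 955 and 605 nt in Sham, 1557 and 1295 nt at 0 h, 1340 and 1570 nt at 6 h and 1082 and 1117 nt at 24 h. Kdm5a was covered over 1410 and 1348 nt in Sham, 998 and 1223 nt at 0 h, 1023 and 1091 nt at 6 h and 350 and 1173 nt at 24 h.

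**Figure D5:**
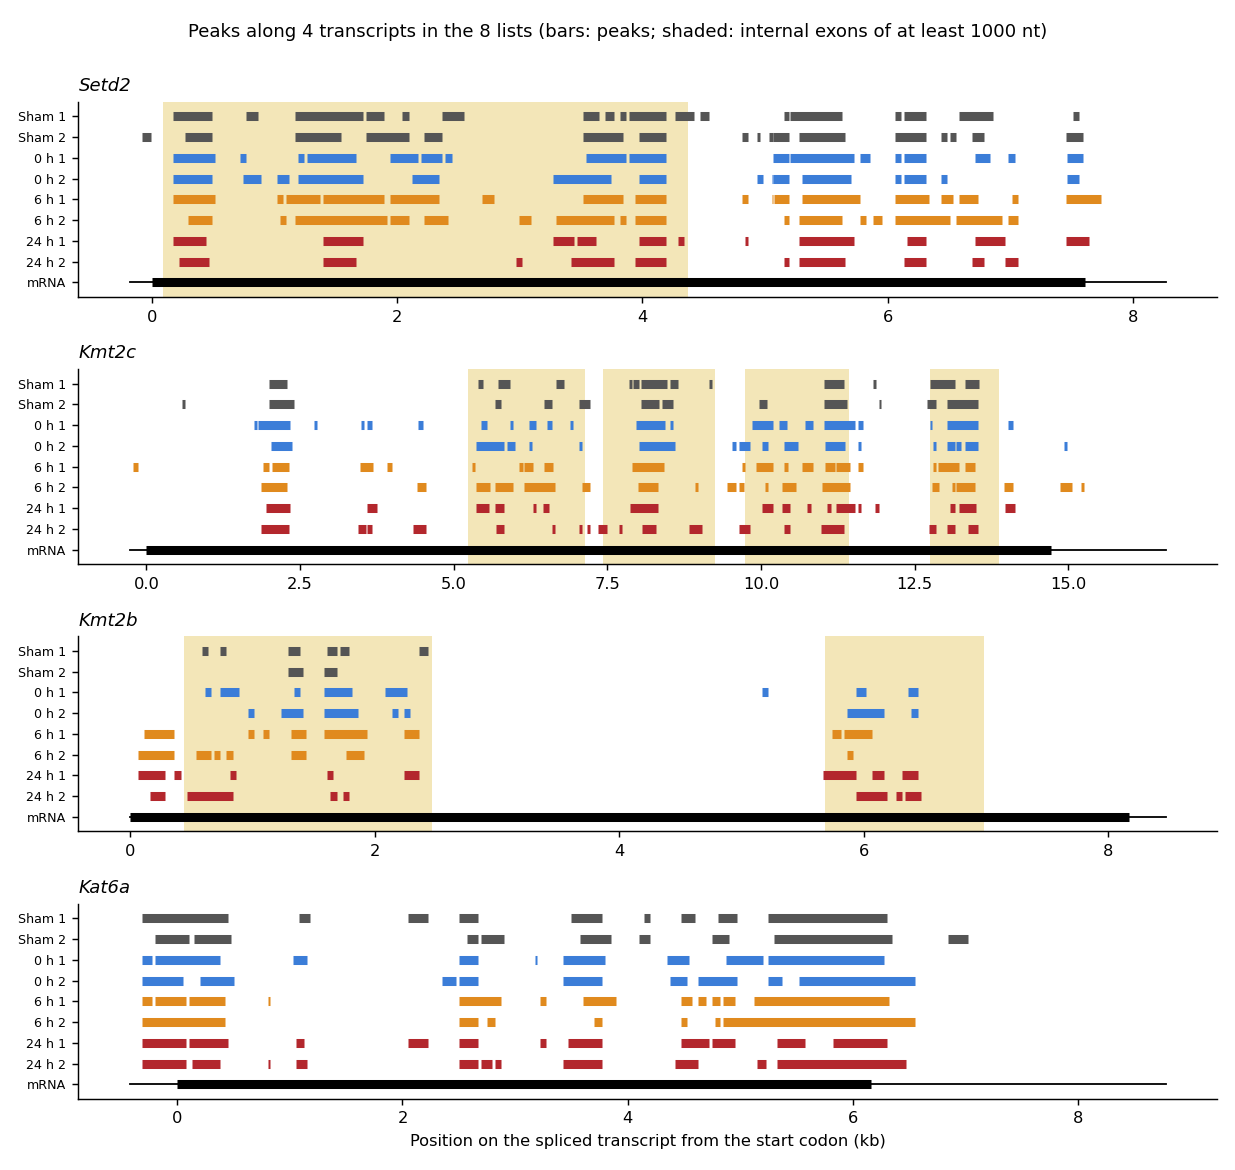
Peaks (bars, coloured by group, 1 row per list) along the spliced transcripts of Setd2, Kmt2c, Kmt2b and Kat6a, in kb from the start codon (x axis). The thick black line is the coding sequence and shading marks internal exons of at least 1000 nt, of which Kat6a has none. In Setd2 the 24 h rows have less of exon 3 covered by bars, and in Kmt2b the shaded exon 28 is empty in both Sham rows.

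The score of regions found in all 8 lists was compared between groups as the normal quantile of its rank in its list, with limma over 4734 regions, 59 of them of these genes. Here too the highest peak of a list stood for the region. At an adjusted p under 0.05, 0 regions were called at any time, with 0% of all regions called at 0, 6 and 24 h of reperfusion. At an unadjusted p under 0.05, limma gave 1, 5 and 6 of the 59 regions (1.69%, 8.47% and 10.2%), against 303, 448 and 393 of all 4734 (6.40%, 9.46% and 8.30%). The lowest adjusted p of limma among the 59 was 0.647, 0.494 and 0.521. The largest difference was in Setdb1, whose region in exon 16 (chr3:95233546-95234951, −) had quantiles of -1.05 and -0.26 in Sham, -0.59 and 0.37 at 0 h, 0.72 and -0.03 at 6 h and 0.49 and 1.23 at 24 h. Its difference at 24 h was 1.51 ± 0.52 quantile units (SE; limma, adjusted p = 0.521). The Setd1b region in exon 6 (chr5:123284646-123286779, +) had 0.96 and 1.29 in Sham and -0.29 and 0.28 at 24 h, a difference of -1.13 ± 0.35 (SE; limma, adjusted p = 0.521). The same exon had the most covered bases in the Sham lists. A rank within a list is not a methylation level, and these values do not show that levels were equal.

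Among 52 other genes of the pathway, chosen outside the symbol rule, 17 had a peak in all 8 lists, 25 in some and 10 in none, at 0.425 peaks per kb. Those without a peak were Sirt6, Hat1, Prmt1, Rbbp4, Rbbp7, Wdr5, Dpy30, Sin3b, Mta1 and Mta2. They include Rbbp4, Rbbp7, Mta1 and Mta2, subunits of the NuRD complex in which Hdac1 and Hdac2 act, and Wdr5 and Dpy30, shared subunits of the Kmt2 and Setd1 complexes. Ash1l, an H3K36 methyltransferase, had 13.6 peaks per list, Jmjd1c, a homologue of Kdm3b, 9.38, and Ncoa1, a nuclear receptor coactivator, 8.75. The 52 genes held 109 and 98 peaks in Sham, 111 and 118 at 0 h, 110 and 109 at 6 h and 91 and 104 at 24 h. Of their 253 regions, 10, 6 and 4 were gained at the 3 times (3.95%, 2.37% and 1.58%, against 2.6%, 3.43% and 2.53% of all regions), and 3, 2 and 4 lost (1.19%, 0.791% and 1.58%, against 1.27%, 1.4% and 1.84%).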

How the data were processed

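The data were the peak lists of 8 MeRIP-seq IP libraries, 2 per group, grouped by the sample labels. The 8 input libraries were not analysed here. The authors trimmed reads with Trim Galore, aligned them to GRCm39 with HISAT2, filtered them with SAMtools and called peaks with exomePeak2 (p-value cutoff 0.05, log2 fold change cutoff 0.5). Whether replicates were pooled for a call, and the version of the peak caller, are not given in the sources used here. RNA was fragmented to about 100 nt by the methods and 200 nt by the sample records. The deposited lists give each peak a score on an undefined scale, used here as a rank within a list. They hold no counts, so depth is unknown and precision comes from the 2 lists per group.

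Each peak was assigned to the same-strand gene with the most exonic overlap (GENCODE M39, GRCm39), its exonic part was rebuilt from that gene's exons, and peaks sharing at least 1 exonic base were joined into regions. Of the peaks of the 62 genes, 91.9% had a rebuilt length that is a multiple of 25 nt, the step of the lists, against 78.5% for the whole span. Exon types, stop codons and lengths came from the transcript of each gene whose coding sequence is longest. Python 3.11.15 (numpy 2.4.6, pandas 2.3.3, matplotlib 3.10.9) was used. Scores of regions in all 8 lists were fitted with limma 3.58.1 in R 4.3.3 (trended variance, 4 groups in 1 fit, no covariate, Benjamini-Hochberg over all regions). This step was tested on simulated data.

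Members and lists were chosen with earlier results of these data known. Named by rule were the Kmt2 family, the 8 genes with the most peaks, genes with a gained or lost region, genes without a peak, genes passing the score test, the top 2 of each role, and the 8 genes whose region in all 8 lists had the highest lowest percentile. Printing sequences of changed regions only where gained or lost at all 3 times, the comparison of all 6 reperfusion lists, and the comparison of covered bases in long internal exons were chosen after values were seen. Alternatives were lists of equal length, the higher-scoring 50% of each list, leaving out each library, other joining and assignment rules, other windows, exon bounds and transcripts, and other forms of the score fit, with a replicate block among them. Of the marker list, 1 gene is not reported here.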

Additional observations from a re-analysis of the deposited data

How the results depend on the processing

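Of 226 values under other settings, 186 stayed within the spread of the lists or, for counts, within 1.5 times the value given above, and 40 did not. Keeping the higher-scoring 50% of each list gave 149 peaks per list in 34.5 genes, 84.9% of centres in coding sequence, 50.2% in long internal exons, and 8 gained and 5 lost regions at MCAO/R-0 h, 12 and 4 at MCAO/R-6 h and 9 and 6 at MCAO/R-24 h. The counts fell because fewer peaks were kept, and the cause of the higher shares was not tested. The share near the stop codon was 5.99% with a window of 100 nt and 14.9% with 400 nt. The share in long internal exons was 55.4% and 27.7% with bounds of 200 and 1000 nt. With lists of equal length, chosen after the lists were seen, 1 gene was higher at MCAO/R-0 h and 2 lower at MCAO/R-6 h.

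Leaving out each library in turn gave 245.6 to 253.6 peaks per list, 44.9 to 45.9 genes, 79.7% to 80.6% in coding sequence, 10.3% to 10.6% near the stop codon, 45.4% to 46.2% in long internal exons and 58 to 66 regions in every list. The gained and lost counts rest on single libraries, since a group left with 1 list asks less: they ranged from 17 to 71 and 11 to 64 at MCAO/R-0 h, 21 to 75 and 9 to 72 at MCAO/R-6 h, and 15 to 65 and 15 to 73 at MCAO/R-24 h. The upper ends came without MCAO/R-0 h replicate 1, MCAO/R-6 h replicate 1 and MCAO/R-24 h replicate 1 for gains, and without Sham replicate 2 for losses.

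The score fit called 0 regions of these genes under every setting run with all 8 libraries. Under the replicate block, limma gave 2, 7 and 7 of the 59 (3.39%, 11.9% and 11.9%) at an unadjusted p under 0.05. Of all 4734 regions it gave 366, 533 and 488 (7.73%, 11.3% and 10.3%). Over all regions limma called 1 at MCAO/R-24 h with regions in at least 6 lists and 0 to 3 there when a library was left out (3 without MCAO/R-24 h replicate 2, where the remaining library is assumed to vary like the other groups). The replicate numbers were not taken as pairs, since the correlations of deviations were 0.0404 to 0.0841, and the block called 0 regions at each time. Without read counts, a missing peak cannot be told from low depth.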
